A study of Mus musculus with 2 samples.

Results

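Brown fat acts on other tissues through proteins and lipids that it releases, and 10 genes that encode such factors, or the enzymes that make them, were followed here in interscapular brown adipose tissue (iBAT) by RNA sequencing. The genes were *Nrg4*, *Bmp8b*, *Fgf21*, *Gdf15*, *Metrnl*, *Slit2*, *Cxcl14*, *Igfbp2*, *Ptgds* and *Pm20d1*. They were chosen as named brown fat signals, and their symbols were matched to mouse Ensembl identifiers. All 10 were found among the 52768 genes listed for each library. The tissue came from C57BL/6 mice at 8 weeks of age. BKO mice carried 2 floxed *Mettl3* alleles and 1 copy of *Ucp1*-iCre (METTL3flox/flox UCP1-iCre+/-), and control flox/flox mice had the same floxed alleles without the driver (METTL3flox/flox). *Mettl3* encodes the enzyme that writes m6A, a methyl mark on mRNA. The Cre is expressed from the *Ucp1* locus, so that deletion is directed to cells that have switched on *Ucp1*, the brown adipocytes, and not to the vessel, immune, stromal and nerve cells of the pad. RNA of 4 mice was pooled into 1 library for each genotype. With a single library on each side no p-value can be given, and each difference describes these 2 libraries without a replicate check.

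Brown adipocytes burn fuel to make heat, and the factors they secrete are often called batokines. Some, such as neuregulin 4, signal to the liver. Others act on nerves and vessels of the fat pad itself, on immune cells or on the brain, and several are induced by cold or by cellular stress. In bulk tissue a lower level can come from fewer cells of a type or from less RNA per cell, and these cannot be told apart here.

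Values are FPKM, fragment counts scaled by exon length and library size. Multiplied by exon length they gave back whole fragments for all 10 genes, so the count behind each level is known. The library labelled BKO held 20219345 recovered fragments in genes and the flox/flox library 18929137. A fold is the plain FPKM ratio, followed in parentheses by an exact 95% interval for counting error alone, which leaves out the spread between mice and between preparations. A gene was tested when its 2 values averaged 1 FPKM or more, and it was called higher or lower when its log2 ratio, taken after adding 0.1 FPKM to both values, reached 2-fold. *Mettl3* itself was at 2.38 FPKM in the library labelled BKO (253 fragments), against 1.80 FPKM in the flox/flox library (165 fragments), 1.32-fold higher (1.08 to 1.62). This value of the whole gene was thus not lower in the library labelled BKO. The floxed exons were not measured apart, so it does not test the label. The sample is called the library labelled BKO throughout. *Ucp1*, the uncoupling protein that defines brown fat, was at 537 FPKM in the library labelled BKO against 3164 FPKM in flox/flox, so that brown adipocyte RNA was plain in both. Markers of other cells differed widely. All 14 tested skeletal muscle markers and all 12 macrophage markers were called higher in the library labelled BKO, as were 7 of 10 fibroblast and preadipocyte markers, whereas 6 of 10 endothelial markers were called lower.

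The secreted factors did not move together. *Metrnl* was markedly more abundant in the library labelled BKO, and *Fgf21*, *Gdf15* and *Igfbp2* had more fragments there at low levels, while *Nrg4* and *Pm20d1* were lower and *Bmp8b* and *Slit2* had fewer fragments at very low levels. *Ptgds* and *Cxcl14* lay within 2-fold. Of the 10 genes, 5 passed the filter, and of these 1 was called higher and 2 were called lower. Over all 12205 genes tested, 11.0% were called higher and 5.91% were called lower. Higher genes made up 65.0% of these calls, and 83.7% when both libraries were rescaled to the same FPKM sum (TPM). Under TPM 17.1% of genes were called higher and 3.33% lower. With the mitochondrial genome left out of the TPM these shares were 11.1% and 5.75%. The median log2 ratio of the 5 genes was -0.47, against 0.02 for all genes tested. The interval of the ratio lay above 1 for 5 of the 10 genes and below 1 for the other 5. These intervals cover counting error on the deposited scale alone, and under TPM the log2 ratio of *Ptgds* was -0.15 instead of -0.47. No share over all genes stands beside this count, so it is not a result about the 10 genes.

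**Figure D1:**
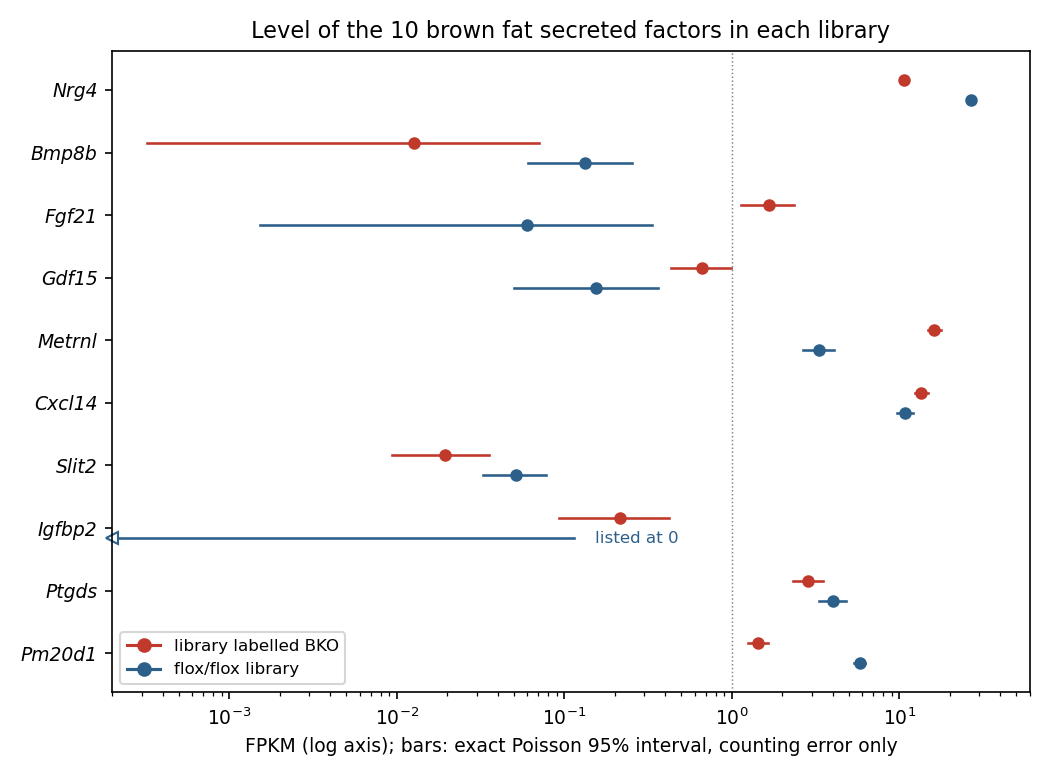
Level of each secreted factor in FPKM, on a log axis, in the library labelled BKO (red, above) and in the flox/flox library (blue, below), with exact Poisson 95% intervals that cover counting error only. *Nrg4*, *Cxcl14*, *Ptgds* and *Pm20d1* lie above 1 FPKM (dotted line) in both libraries, as does *Metrnl*, while *Igfbp2* is listed at 0 in the flox/flox library, where its interval reaches 0.114 FPKM.

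The order of the 10 genes by level differed between the libraries. In the library labelled BKO *Metrnl* ranked first, at 16.2 FPKM, followed by *Cxcl14* at 13.5 FPKM and *Nrg4* at 10.6 FPKM. The flox/flox library had *Nrg4* first, at 26.7 FPKM, then *Cxcl14* at 10.8 FPKM and *Pm20d1* at 5.79 FPKM. *Nrg4* thus made up 22.5% of the summed FPKM of the 10 genes in the library labelled BKO and 52.3% in the flox/flox library, and *Metrnl* made up 34.3% in the library labelled BKO and 6.51% in the flox/flox library. The sums themselves were close, at 47.2 FPKM in the library labelled BKO and 51.0 FPKM in the flox/flox library. Some neighbours in these orders had overlapping counting intervals and were not separated. In the library labelled BKO these were *Ptgds* (2.30 to 3.48 FPKM), *Fgf21* (1.14 to 2.35 FPKM) and *Pm20d1* (1.25 to 1.65 FPKM), each with the next, and at the bottom *Slit2* and *Bmp8b*. In the flox/flox library they were *Ptgds* (3.29 to 4.79 FPKM) and *Metrnl* (2.68 to 4.07 FPKM), and the lowest genes *Gdf15*, *Bmp8b*, *Fgf21*, *Slit2* and *Igfbp2*, where each interval overlapped that of the next gene.

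Among the growth factors, *Nrg4* encodes neuregulin 4, an EGF-family ligand that brown fat releases and that acts on the liver through the receptors ErbB3 and ErbB4. *Nrg4* (ENSMUSG00000032311, chromosome 9, 55220222 to 55326844 on the minus strand of GRCm38) was at 10.6 FPKM in the library labelled BKO (1306 fragments), against 26.7 FPKM in the flox/flox library (2832 fragments). It was 2.51-fold lower (2.35 to 2.68), and 3.33% of the genes tested had a lower ratio. Within its own library *Nrg4* stood above 83.1% of the expressed genes in the library labelled BKO and above 92.9% in the flox/flox library, so it was an abundant transcript in both. Under TPM the log2 ratio of *Nrg4* was -0.99 instead of -1.32, just inside 2-fold, while the median of all genes tested moved to 0.35. With the mitochondrial genome left out of the TPM, the ratio of *Nrg4* was -1.30 and that median was 0.035. The annotation gives *Nrg4* 13 transcripts, the longest of 2095 bases, while the FPKM was scaled to 6075 bases of merged exons, and 8.97% of those bases also lie in exons of *Fbxo22* and *Gm15625* on the opposite strand. Whether the counting used strand is not stated in the sources used here.

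The 250 bases before the RefSeq start of *Nrg4* are shown because this gene had the most fragments of all 10 (chr9:55283626-55283875, minus strand, GRCm38.p6, written 5′ to 3′ along the gene; all in lower case since none of the searched motifs described below was found).

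Nrg4: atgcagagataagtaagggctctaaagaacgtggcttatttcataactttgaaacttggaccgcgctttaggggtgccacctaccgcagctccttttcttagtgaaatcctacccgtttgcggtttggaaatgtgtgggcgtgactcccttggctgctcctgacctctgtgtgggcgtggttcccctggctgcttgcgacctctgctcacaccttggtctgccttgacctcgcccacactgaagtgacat

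*Bmp8b* encodes a bone morphogenetic protein that brown fat makes and that raises its response to noradrenaline. *Bmp8b* (ENSMUSG00000002384, chromosome 4, 123105165 to 123132099 on the plus strand) was near the limit of detection, at 0.0127 FPKM in the library labelled BKO (1 fragment), against 0.133 FPKM in the flox/flox library (9 fragments). The ratio was 10.4-fold lower (1.44 to 457), and the width of this interval comes from the single fragment. Its closest relative, *Bmp8a*, was at 0.0822 FPKM in the library labelled BKO (4 fragments), while flox/flox had none. *Bmp8b* and *Bmp8a* are alike at 88.0% of 1197 aligned coding bases, and 10.3% of the 50-base windows of *Bmp8b* occur in transcripts of other genes. In addition 12.2% of its exon bases lie in exons of *Ppie* and *Gm17244* on the opposite strand, so that some of these few fragments may belong to other genes and the values of *Bmp8b* are uncertain.

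The receptors that these growth factors use were all within 2-fold where they passed the filter. Of 18 listed receptors of the secreted factors, 10 were tested, 0 were called higher and 0 were called lower, with a median log2 ratio of 0.05. Over all genes tested 11.0% were called higher and 5.91% lower. With such shares, 0 calls among 10 genes is not a result about the receptors. *Erbb3* was at 1.08 FPKM in the library labelled BKO, against 1.75 FPKM in the flox/flox library, 1.63-fold lower (1.29 to 2.05). *Erbb4*, the other *Nrg4* receptor, was below the filter, at 0.288 FPKM in the library labelled BKO and 0.468 FPKM in the flox/flox library, 1.62-fold lower (1.19 to 2.23). Both *Nrg4* receptors were thus far less abundant than their ligand in each library. Of the type I receptors for BMP and activin ligands, *Acvr1c* was at 7.61 FPKM in the library labelled BKO and 12.1 FPKM in the flox/flox library, *Bmpr1a* at 8.65 FPKM (labelled BKO) and 5.97 FPKM (flox/flox), and *Acvr1* at 3.26 FPKM (labelled BKO) and 2.48 FPKM (flox/flox). *Bmpr1b* was low, at 0.157 FPKM in the library labelled BKO and 0.0288 FPKM in the flox/flox library. The type II receptors differed less, with *Bmpr2* at 4.63 FPKM in the library labelled BKO and 4.30 FPKM in flox/flox, *Acvr2a* at 3.56 FPKM (labelled BKO) and 3.55 FPKM (flox/flox), and *Acvr2b* at 1.04 FPKM (labelled BKO) and 1.37 FPKM (flox/flox).

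**Figure D2:**
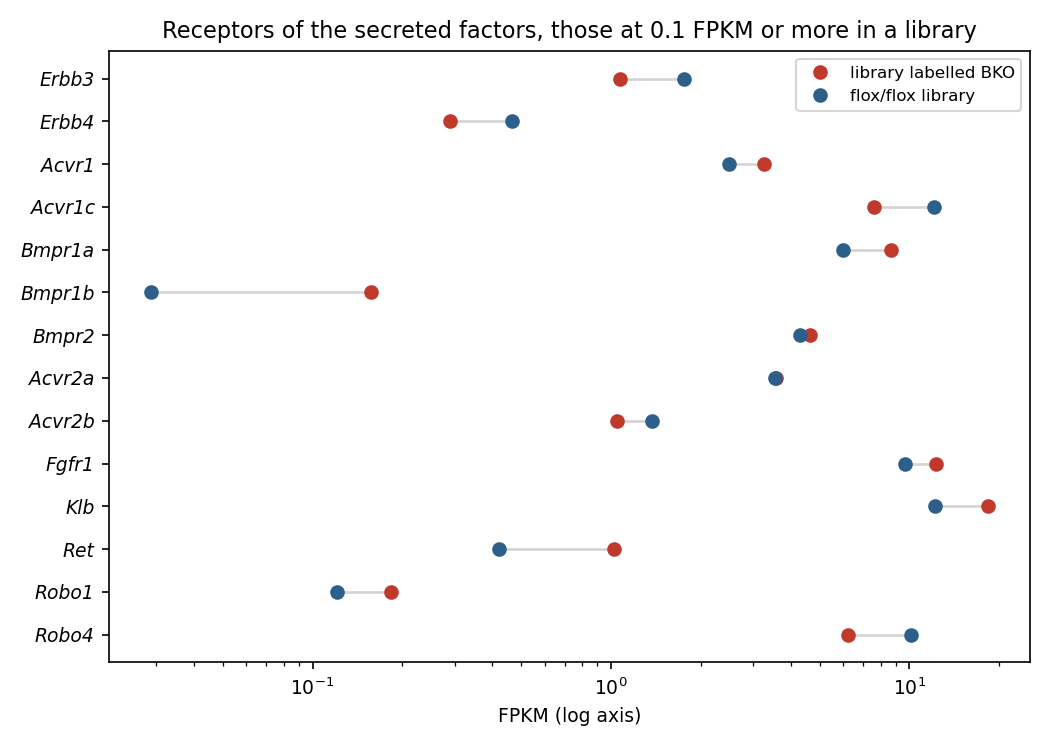
FPKM, on a log axis, of the 14 receptors of the secreted factors that reached 0.1 FPKM in a library, with the library labelled BKO in red and the flox/flox library in blue, and grey lines joining the values of 1 gene. *Klb* is the most abundant in both, at 18.3 FPKM in the library labelled BKO and 12.2 FPKM in flox/flox, and *Ret* and *Bmpr1b* show the widest gaps, both at low levels.

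The other genes of these pathways gave calls in the ErbB list and none in the BMP list. In the list of ErbB ligands and receptors 4 genes were tested, of which 1 was called higher and 1 lower. *Egfr* was at 2.23 FPKM in the library labelled BKO, against 0.667 FPKM in the flox/flox library, 3.35-fold higher (2.76 to 4.09). *Btc*, which encodes the EGF-like ligand betacellulin, was at 2.15 FPKM in the library labelled BKO, against 5.27 FPKM in the flox/flox library, 2.44-fold lower (2.06 to 2.91), a ratio near that of *Nrg4*. The call of *Btc* was lost under TPM, and both calls were lost with a pseudocount of 1 FPKM. In the list of BMP ligands, antagonists and targets 6 genes were tested and 0 were called. *Id1*, a direct target of BMP signalling, was at 34.2 FPKM in the library labelled BKO and 67.0 FPKM in the flox/flox library, 1.96-fold lower (1.79 to 2.14). *Bmp6* had a similar ratio, with 7.09 FPKM in the library labelled BKO and 14.0 FPKM in flox/flox, and the highest tested ratio was that of *Smad7*, an inhibitor of the pathway, at 1.65 FPKM (labelled BKO) and 1.49 FPKM (flox/flox).

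The stress-induced hormones lay at the low end of the range. *Fgf21* encodes fibroblast growth factor 21, an endocrine factor made chiefly by the liver and also by stressed muscle and by activated brown fat. *Fgf21* (ENSMUSG00000030827, chromosome 7, 45613886 to 45615490 on the minus strand) was at 1.66 FPKM in the library labelled BKO (32 fragments), against 0.0602 FPKM in the flox/flox library (1 fragment). It was 27.6-fold higher (4.62 to 1125), the largest ratio among the 9 genes seen in both libraries, and even the lower end of the interval lay above 2-fold. Its mean of 0.861 FPKM was below the filter, so it entered no count of calls.

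*Gdf15* encodes a TGF-beta family hormone that rises with cellular and mitochondrial stress and lowers food intake through its receptor GFRAL in the hindbrain. *Gdf15* (ENSMUSG00000038508, chromosome 8, 70629393 to 70632456 on the minus strand) was at 0.667 FPKM in the library labelled BKO (25 fragments), against 0.154 FPKM in the flox/flox library (5 fragments), 4.32-fold higher (1.62 to 14.4). It too was below the filter. Both hormones were therefore detected mainly in the library labelled BKO, but at low depth.

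**Figure D3:**
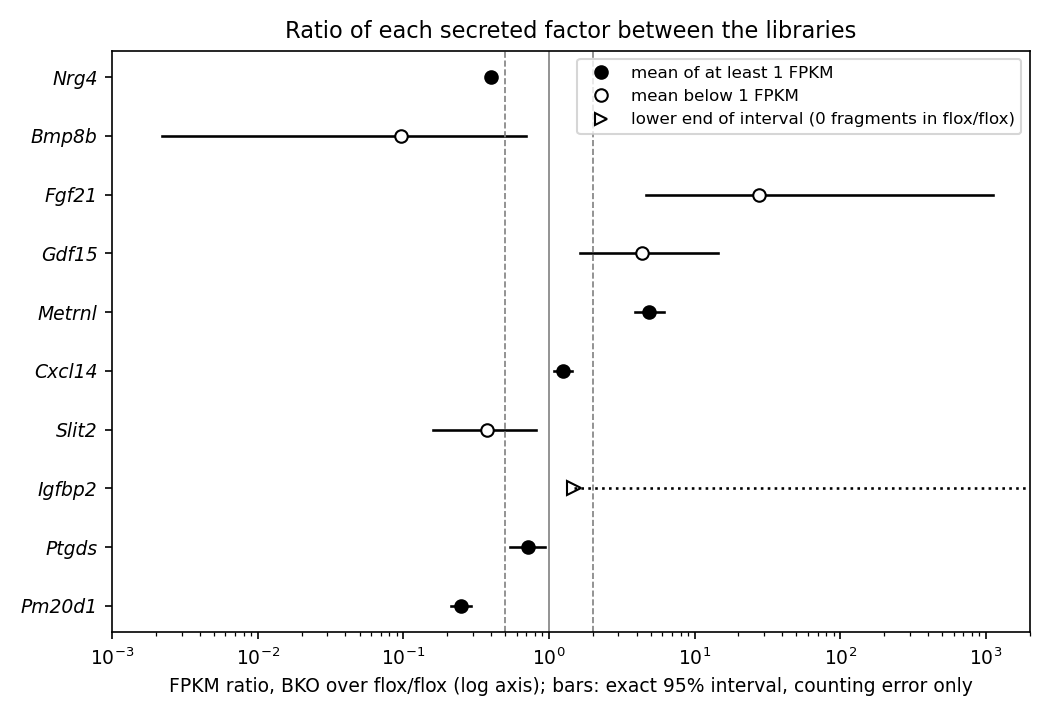
FPKM ratio of each secreted factor, BKO over flox/flox, on a log axis with exact 95% intervals for counting error, a solid line at 1 and dashed lines at 2-fold. Filled points had a mean of at least 1 FPKM and open points less, and the triangle of *Igfbp2* marks the lower end of its interval, at 1.47. The intervals of *Metrnl* and *Fgf21* lie above 2-fold and those of *Nrg4* and *Pm20d1* lie beyond 2-fold on the lower side.

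Expression of *Fgf21*, and in several cell types *Gdf15*, can be driven by the integrated stress response, in which the transcription factor ATF4 acts through composite C/EBP-ATF elements. Windows of 250 bases before the RefSeq starts (GRCm38.p6) were therefore searched on both strands for TGATGNAA, a form of this element, for the cAMP response element TGACGTCA and for AAAGGTCA, part of the repeat bound by PPAR and RXR. RefSeq windows were matched for 9 of the 10 genes, *Pm20d1* being the exception. The C/EBP-ATF element was found in 1 of the 9 genes, *Fgf21*, where TTGCATCA starts 139 bases before the start site, and 3.45% of 32851 windows of the same length hold it. The cAMP response element (1.55% of windows) and the PPAR repeat (1.34% of windows) were found in 0 of the 9. A match of letters describes the sequence and is no evidence of binding. The 250 bases before each start are given for *Fgf21*, with the matched element in capitals (chr7:45615491-45615740, minus strand), and for *Gdf15* at the outer of its RefSeq starts (chr8:70632457-70632706, minus strand), both 5′ to 3′ along the gene.

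Fgf21: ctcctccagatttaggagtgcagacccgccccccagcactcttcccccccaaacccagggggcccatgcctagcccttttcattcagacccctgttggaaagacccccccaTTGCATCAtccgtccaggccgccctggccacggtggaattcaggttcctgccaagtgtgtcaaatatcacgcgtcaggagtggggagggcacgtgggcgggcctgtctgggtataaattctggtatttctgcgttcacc
Gdf15: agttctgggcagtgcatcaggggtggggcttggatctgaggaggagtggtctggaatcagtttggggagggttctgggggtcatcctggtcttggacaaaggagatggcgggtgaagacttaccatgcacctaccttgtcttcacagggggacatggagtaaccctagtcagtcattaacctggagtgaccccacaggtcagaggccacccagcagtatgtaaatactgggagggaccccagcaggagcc

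The integrated stress response genes themselves were called in both directions. Of 18 listed, 17 were tested, with 4 called higher, 2 called lower and a median log2 ratio of -0.02, against 0.02 for all genes. Under TPM the counts were 5 higher and 1 lower, and with each library scaled to its own fragments 4 and 1. *Chac1*, a glutathione-degrading enzyme induced by ATF4, was at 13.3 FPKM in the library labelled BKO, against 1.19 FPKM in the flox/flox library, 11.2-fold higher (7.91 to 16.4). The other calls above 2-fold were *Psat1* and *Phgdh*, enzymes of serine synthesis, and the factor *Atf3*. *Psat1* was at 6.67 FPKM in the library labelled BKO and 0.955 FPKM in flox/flox, *Phgdh* at 11.9 FPKM (labelled BKO) and 4.28 FPKM (flox/flox), and *Atf3* at 3.85 FPKM (labelled BKO) and 1.12 FPKM (flox/flox). *Trib3*, an inhibitory target of the same pathway, was at 3.63 FPKM in the library labelled BKO, against 11.3 FPKM in the flox/flox library, 3.11-fold lower (2.58 to 3.76), and *Shmt2* of mitochondrial one-carbon metabolism was at 4.78 FPKM (labelled BKO) and 9.86 FPKM (flox/flox). *Atf5*, the most abundant of the list, was at 55.7 FPKM in the library labelled BKO and 104 FPKM in the flox/flox library. *Atf4* was at 55.7 FPKM (labelled BKO) and 49.6 FPKM (flox/flox), and *Ddit3*, which encodes CHOP, at 9.46 FPKM (labelled BKO) and 18.2 FPKM (flox/flox). More *Fgf21* and *Gdf15* fragments thus stood beside higher levels of some targets of this response and lower levels of others.

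Brown fat can also respond to FGF21, through the receptor FGFR1 and its co-receptor beta-klotho, encoded by *Klb*. *Klb* was at 18.3 FPKM in the library labelled BKO, against 12.2 FPKM in the flox/flox library, 1.50-fold higher (1.39 to 1.63), and *Fgfr1* at 12.3 FPKM, against 9.65 FPKM in flox/flox, 1.27-fold higher (1.20 to 1.36). Both receptors were several times more abundant than *Fgf21* in each library. In the list of FGF ligands and receptors 10 genes were tested, of which 1 was called higher (2 under TPM, 0 with a pseudocount of 1 FPKM) and 0 lower. This was *Fgf1*, at 5.56 FPKM in the library labelled BKO, against 2.36 FPKM in the flox/flox library, 2.35-fold higher (1.99 to 2.79). *Dusp6*, a feedback target of FGF signalling, had the lowest ratio, with 12.2 FPKM in the library labelled BKO and 17.3 FPKM in the flox/flox library. For *Gdf15*, the receptor *Gfral* was listed at 0 in both libraries. Its signalling partner *Ret* was at 1.02 FPKM in the library labelled BKO (140 fragments), against 0.423 FPKM in the flox/flox library (50 fragments), 2.42-fold higher (1.74 to 3.41), with a mean below the filter.

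Skeletal muscle and macrophages can make *Fgf21*, *Gdf15* and *Metrnl*, and their markers differed in the same direction as these genes. The 15 skeletal muscle markers summed to 3964 FPKM in the library labelled BKO and 61.1 FPKM in the flox/flox library, with *Tnnc2* listed at 0 in both. Those of macrophages summed to 575 FPKM in the library labelled BKO and 112 FPKM in the flox/flox library, with none at 0. The part of either cell type in the levels of the secreted factors was not tested. Rescaling to TPM without the markers of both cell types, an alternative chosen after the values were seen, gave log2 ratios of 3.70 for *Fgf21*, 1.85 for *Gdf15* and 2.60 for *Metrnl*, against 3.46, 1.59 and 2.25 as deposited, but this changes only the scale and removes no cells.

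*Metrnl* was the only gene of the 10 called higher. It encodes meteorin-like, a secreted protein of muscle and fat that is induced by exercise and cold and acts on immune cells of adipose tissue. *Metrnl* (ENSMUSG00000039208, chromosome 11, 121701544 to 121716306 on the plus strand) was at 16.2 FPKM in the library labelled BKO (520 fragments), against 3.32 FPKM in the flox/flox library (92 fragments), 4.88-fold higher (3.90 to 6.16). Among all genes tested 3.38% had a higher ratio. *Metrnl* stood above 88.2% of the expressed genes in the library labelled BKO and above 64.3% in the flox/flox library. No exon base of *Metrnl* was shared with another gene, and none of its 50-base windows occurred elsewhere in the transcripts. Its relative *Metrn*, which encodes the neuronal factor meteorin, is alike at 58.2% of 843 aligned coding bases and was at 0.689 FPKM in the library labelled BKO and 0.0798 FPKM in the flox/flox library, below the filter and with fragments that could not be determined. The 250 bases before the start of *Metrnl* are given because it was the gene called higher (chr11:121702177-121702426, plus strand, GRCm38.p6, 5′ to 3′).

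Metrnl: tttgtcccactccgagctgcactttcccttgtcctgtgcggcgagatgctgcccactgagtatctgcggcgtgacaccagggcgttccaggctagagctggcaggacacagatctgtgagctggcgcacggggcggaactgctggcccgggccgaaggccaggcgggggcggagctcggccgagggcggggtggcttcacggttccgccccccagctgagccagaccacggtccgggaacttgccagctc

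This window holds 20 CpG and is 68.4% G and C, whereas the outer *Gdf15* window has 1 CpG and 56.4%, *Fgf21* 9 CpG and 59.6%, and *Nrg4* 10 CpG and 53.2%. The inner *Gdf15* window has 6 CpG. Over all 11 windows of the 9 matched genes the number of CpG ran between 1 and 25 and the G and C content between 53.2% and 69.6%, against medians of 6 CpG and 52.4% over all windows. Among the genes with more fragments in the library labelled BKO, only the outer *Gdf15* window lay below the median of CpG. The inner one was at it. Among the matched genes with fewer fragments there, only the *Ptgds* window, with 2 CpG, lay below it. The number of CpG thus did not separate the directions.

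**Figure D4:**
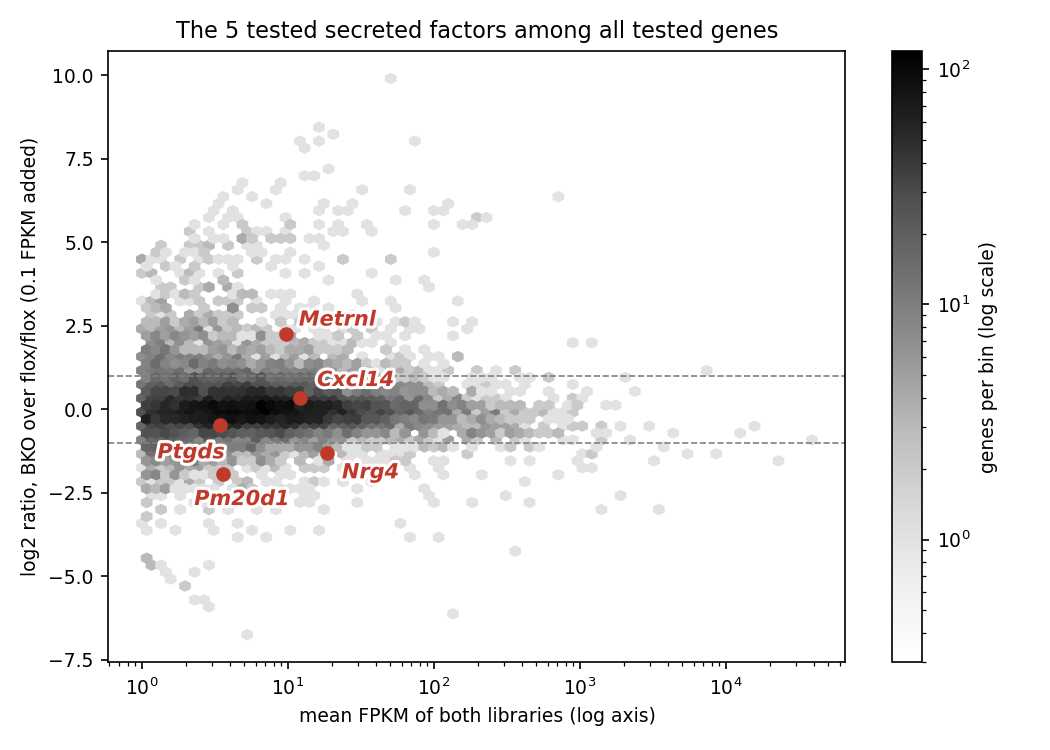
Log2 ratio, BKO over flox/flox with 0.1 FPKM added, against mean FPKM on a log axis for all 12205 genes tested, shaded by the number of genes per bin, with the 5 secreted factors that passed the filter in red and dashed lines at 2-fold. *Metrnl* lies above the upper line, *Nrg4* and *Pm20d1* below the lower one, and *Ptgds* and *Cxcl14* within the band that holds most genes.

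*Cxcl14* differed little. It encodes a chemokine that active brown fat secretes and that recruits macrophages. *Cxcl14* (ENSMUSG00000021508, chromosome 13, 56288643 to 56296551 on the minus strand) was at 13.5 FPKM in the library labelled BKO (500 fragments), against 10.8 FPKM in the flox/flox library (345 fragments), 1.25-fold higher (1.09 to 1.44), and 30.1% of the genes tested had a higher ratio. It held second place among the 10 in both libraries. CXCL14 has been described as a modulator of the CXCL12 receptor CXCR4, and the genes of that axis did differ. *Cxcr4* was at 2.40 FPKM in the library labelled BKO, against 0.664 FPKM in the flox/flox library, 3.62-fold higher (2.23 to 6.14). *Ackr3*, an atypical receptor that scavenges CXCL12, was at 10.4 FPKM in the library labelled BKO, against 28.4 FPKM in the flox/flox library, 2.73-fold lower (2.50 to 2.99). *Cxcl12* was within 2-fold, at 11.4 FPKM in the library labelled BKO and 18.9 FPKM in the flox/flox library. All 12 macrophage markers were called higher in the library labelled BKO, with *Lyz2* at 237 FPKM there and 41.0 FPKM in the flox/flox library. A link between the level of *Cxcl14* and these markers was not tested.

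*Slit2* encodes a secreted guidance protein whose C-terminal fragment raises thermogenesis in fat. *Slit2* (ENSMUSG00000031558, chromosome 5, 47983138 to 48307733 on the plus strand) was barely detected, at 0.0194 FPKM in the library labelled BKO (10 fragments), against 0.0517 FPKM in the flox/flox library (23 fragments), 2.66-fold lower (1.22 to 6.27). The annotation merges 23 transcripts into 25433 exon bases, while the longest transcript has 9960, so the level per kilobase is understated relative to genes with compact models, whereas the ratio between libraries is not affected by length. Its relative *Slit3* was much more abundant, at 3.83 FPKM in the library labelled BKO and 2.56 FPKM in the flox/flox library, 1.49-fold higher (1.28 to 1.74). Of the receptors, *Robo4*, which marks endothelium, was at 6.23 FPKM in the library labelled BKO, against 10.1 FPKM in the flox/flox library, 1.62-fold lower (1.46 to 1.79). The 10 endothelial markers summed to 135 FPKM in the library labelled BKO and 298 FPKM in flox/flox, and their part in the *Robo4* value was not tested. *Robo1* was at 0.183 FPKM (labelled BKO) and 0.121 FPKM (flox/flox) and *Robo2* at 0.00299 FPKM (labelled BKO) and 0.0104 FPKM (flox/flox). In the list of the Slit and Robo system 3 genes were tested and 0 were called.

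*Igfbp2* encodes a binding protein that holds insulin-like growth factors in the circulation and in tissue. *Igfbp2* (ENSMUSG00000039323, chromosome 1, 72824503 to 72852474 on the plus strand) was at 0.214 FPKM in the library labelled BKO (8 fragments) and had 0 fragments in the flox/flox library, where the exact interval reaches 0.114 FPKM. The exact interval of its ratio starts at 1.47-fold higher and has no upper end, so a difference of 2-fold was not established at this depth. The other genes of the IGF system were far more abundant, and 3 of the 10 tested were called higher (5 under TPM) and 0 lower, with a median log2 ratio of 0.79. *Igfbp6* was at 51.9 FPKM in the library labelled BKO, against 8.64 FPKM in the flox/flox library, 6.00-fold higher (5.10 to 7.10). *Igfbp4* was at 31.0 FPKM in the library labelled BKO and 10.8 FPKM in flox/flox, and *Igfals*, whose product stabilises circulating IGF complexes, at 17.9 FPKM (labelled BKO) and 4.42 FPKM (flox/flox). *Igfbp7*, the most abundant, was at 136 FPKM in the library labelled BKO and 113 FPKM in flox/flox, and *Igfbp3* had the lowest ratio, at 5.89 FPKM (labelled BKO) and 7.80 FPKM (flox/flox). Fibroblasts express several of these binding proteins, and the 10 fibroblast and preadipocyte markers summed to 552 FPKM in the library labelled BKO and 184 FPKM in the flox/flox library. Their part in the *Igfbp2* and *Igfbp6* values was not tested.

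Of the secreted enzymes, *Ptgds* encodes lipocalin-type prostaglandin D synthase, which makes prostaglandin D2 and also circulates as a lipid carrier. *Ptgds* (ENSMUSG00000015090, chromosome 2, 25466709 to 25470046 on the minus strand) was at 2.85 FPKM in the library labelled BKO (95 fragments), against 3.99 FPKM in the flox/flox library (115 fragments), 1.40-fold lower (1.06 to 1.86), and 17.6% of the genes tested had a lower ratio. It was not called. The other prostaglandin D synthase, *Hpgds* of immune cells, was at 0.715 FPKM in the library labelled BKO and 0.365 FPKM in the flox/flox library, 1.96-fold higher (1.34 to 2.90), below the filter. The prostaglandin D2 receptors were close to absent from the reads, *Ptgdr* with 0 fragments in the library labelled BKO and 1 in the flox/flox library, and *Ptgdr2* with 2 in the library labelled BKO and 0 in the flox/flox library. Of 9 tested genes of prostaglandin synthesis and reception 4 were called higher and 1 lower. *Ptgis*, prostacyclin synthase, was at 2.16 FPKM in the library labelled BKO, against 0.513 FPKM in the flox/flox library, 4.21-fold higher (2.67 to 6.90), and the others called higher were *Ptges*, *Hpgd* and *Ptger3*. *Ptger4*, a prostaglandin E2 receptor, was at 0.929 FPKM in the library labelled BKO, against 2.03 FPKM in the flox/flox library, 2.19-fold lower (1.75 to 2.74), a call lost under TPM, on own fragment totals and with a pseudocount of 1 FPKM. With a filter of 5 FPKM 1 gene of the list stayed called higher and 0 lower. The most abundant gene of the list, *Ptges3*, was at 19.1 FPKM (labelled BKO) and 24.1 FPKM (flox/flox).

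*Pm20d1* had the lowest ratio among the 5 tested. It encodes a secreted enzyme of thermogenic fat that joins fatty acids to amino acids and makes lipids that uncouple respiration. *Pm20d1* (ENSMUSG00000042251, chromosome 1, 131797381 to 131821473 on the plus strand) was at 1.44 FPKM in the library labelled BKO (205 fragments), against 5.79 FPKM in the flox/flox library (711 fragments), 4.02-fold lower (3.43 to 4.71). Only 1.25% of the genes tested had a lower ratio. *Pm20d1* stood above 51.4% of the expressed genes in the library labelled BKO and above 73.9% in the flox/flox library. Its sequence was nearly its own, with 0.354% of the 50-base windows found in other transcripts. The relatives and related enzymes did not share this difference in size, since of 5 tested 0 were called (1 higher under TPM), with a median log2 ratio of -0.05. *Pm20d2* was at 2.40 FPKM in the library labelled BKO and 4.05 FPKM in the flox/flox library, 1.69-fold lower (1.28 to 2.24), and *Cndp2*, a cytosolic peptidase, at 29.5 FPKM (labelled BKO) and 15.1 FPKM (flox/flox).

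The lower secreted factors can be read against the brown adipocyte markers of the same libraries. Of 10 such markers 0 were called higher and 4 lower, with summed levels of 4051 FPKM in the library labelled BKO and 9045 FPKM in the flox/flox library. *Ucp1* was 5.89-fold lower, a larger difference than that of *Pm20d1* or *Nrg4*. Relative to *Ucp1*, *Nrg4* was thus 2.35 times and *Pm20d1* 1.47 times as high in the library labelled BKO as in the flox/flox library. *Ucp1* had the lowest ratio of the 10 markers. Only the BKO mice carried the Cre at its locus, and the part of this in its level was not tested. *Gyk* (4.98-fold lower) also differed more than both genes, and *Prdm16* (2.81-fold lower) more than *Nrg4*. The remaining markers, between 1.30-fold (*Kcnk3*) and 2.45-fold lower (*Ppargc1a*), differed less than either gene, so against them the same measure would lie below 1. *Adipoq*, which encodes the adipocyte hormone adiponectin, was at 1150 FPKM in the library labelled BKO and 665 FPKM in the flox/flox library. Relative to *Adipoq* the same measure was 0.230 for *Nrg4* and 0.144 for *Pm20d1*. *Adipoq* had the highest ratio of the 8 general adipocyte markers, so the others would give values nearer to 1. The lowest ratio was that of *Pparg*, 1.41-fold lower in the library labelled BKO. The 8 general adipocyte markers summed to 5528 FPKM in the library labelled BKO and 5102 FPKM in the flox/flox library, with 0 called in either direction. *Nrg4* and *Pm20d1* were thus lower beside general adipocyte markers that all lay within 2-fold and brown adipocyte markers that all had ratios below 1. The part of the brown adipocyte markers' difference in the levels of *Nrg4* and *Pm20d1* was not tested.

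**Figure D5:**
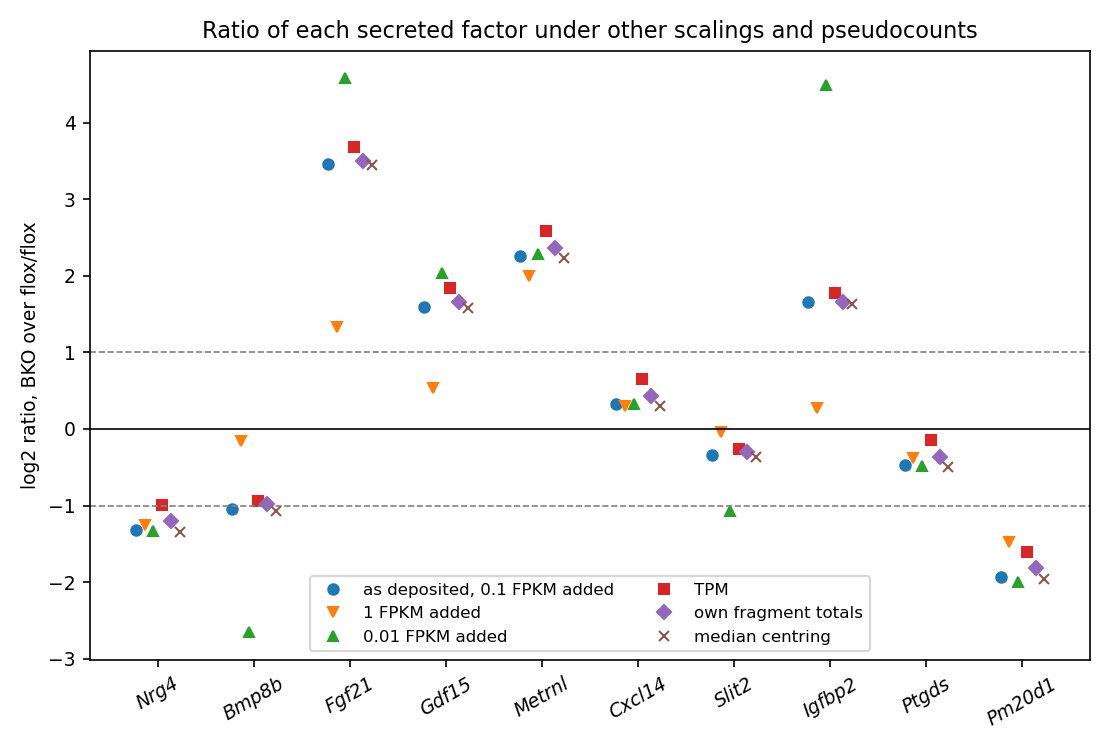
Log2 ratio of each secreted factor, BKO over flox/flox, as deposited with 0.1 FPKM added and under other pseudocounts and scalings, with a solid line at 0 and dashed lines at 2-fold. No gene crosses 0, which a change of pseudocount alone cannot bring about. *Nrg4* moves to -0.99 under TPM, and the ratios of *Bmp8b*, *Fgf21* and *Igfbp2*, which rest on few fragments, depend most on the pseudocount.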

How the data were processed

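iBAT RNA of 4 mice per genotype was pooled into 1 paired-end library, and groups follow the genotype in the labels. The authors aligned reads to GRCm38 with TopHat2, counted them with HTSeq (0.6.1 according to the submitters' notes) and deposited FPKM for each gene. How counts became FPKM and how strand was treated are not given in the sources used here. GENCODE M21 gave names and exon lengths for 52403 of 52768 identifiers.

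Since the unit is FPKM, count models were not used. Multiplying by merged exon length gave whole fragments (tolerance 0.001) for 22391 of 24856 genes above 0, and for 980 more at another length, with 1485 undetermined. The implied library sizes were 20240633 for the library labelled BKO and 17480546 for flox/flox, which is 92.3% of the recovered flox/flox fragments, so deposited values were not scaled by library total alone. Ratio intervals are Clopper-Pearson and level intervals exact Poisson (scipy 1.17.1). They cover counting error only. PCR copies of a molecule are not told apart, so the intervals may be too narrow even for counting error.

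Log2 ratios used 0.1 FPKM as pseudocount, which understates changes of low genes, and a filter of 1 FPKM on the mean. The 10 genes, the lists and the tests were chosen with earlier results of these data known. Beside the 10, the text names receptors above 0, and from each list the most abundant gene and the highest and lowest ratio, except 1 gene that is not reported here. *Psat1*, *Phgdh*, *Atf3*, *Shmt2*, *Atf4*, *Ddit3*, *Hpgds*, *Ptges*, *Hpgd*, *Ptger3*, *Igfbp4*, *Igfals*, *Cxcl12* and *Lyz2* fall outside this rule. They were chosen with their values in view. *Gyk*, *Prdm16* and *Ppargc1a*, named among the brown adipocyte markers by the size of their ratios, also fall outside it. Alternatives were other pseudocounts (1 and 0.01 FPKM), other filters (none and 5 FPKM), protein-coding genes alone and other scalings, 1 of them added after the values were seen.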

Additional observations from a re-analysis of the deposited data

How the results depend on the processing

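All 10 secreted factors kept the direction of their log2 ratio under every alternative run. A pseudocount cannot change this direction and a filter leaves each ratio as it is, so only the scalings could have done so. The scalings placed the median log2 ratio of all genes tested between -0.005 and 0.37. Genes with much larger ratios could therefore not have crossed 0. The call of *Metrnl* as higher held in each of them, and so did that of *Pm20d1* as lower wherever it was tested. The median log2 ratio of the secreted factors, -0.47 as reported, was -0.012 with no filter, -0.15 under TPM, -0.36 with each library scaled to its own fragments, -0.13 under TPM without skeletal muscle markers and -0.13 without those of muscle and macrophages. It reversed to 0.32 with a filter of 5 FPKM, which left 3 genes (*Nrg4*, *Metrnl* and *Cxcl14*). With no filter 4 secreted factors and 1 receptor (*Ret*) were counted as higher, against 1 and 0, and 3 secreted factors as lower, against 2. Over all 24856 genes above 0 this setting called 13.7% higher and 9.32% lower. The count lower, 2 as reported, was 1 with the filter of 5 FPKM, which drops *Pm20d1*, and 1 under TPM with all genes, without skeletal muscle markers, or without muscle and macrophage markers, where *Nrg4* lay just inside 2-fold. TPM moved the median of all genes tested to 0.35 on the log2 scale and called 17.1% of genes higher and 3.33% lower. It made 83.7% of all calls higher, against 65.0% as deposited. TPM without the mitochondrial genome did not show this shift, with a median of 0.035, 11.1% called higher and 5.75% lower. In that setting *Nrg4* was at -1.30 and the count of secreted factors lower stayed at 2. The fitted ratios of low genes followed the pseudocount, with *Fgf21* between 1.33 and 4.58, *Igfbp2* between 0.28 and 4.49, *Bmp8b* between -2.65 and -0.16 and *Slit2* between -1.07 and -0.05. Of the other values, 78 moved and 330 did not.

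No paired analysis was possible because each genotype has 1 library, and for the same reason leaving out a library was not run. Depth limited *Bmp8b*, *Fgf21*, *Gdf15*, *Slit2* and *Igfbp2*, whose levels rest on 0 to 32 fragments. Differences between mice, dissections or library preparations and genotype cannot be told apart.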

Other observations

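Of 24 other products reported for brown fat, 20 were tested, of which 5 were called higher and 2 lower, with a median log2 ratio of 0.55, beside 11.0% and 5.91% of all genes and a median of 0.02. The counts depended on the processing, with 10 higher and 1 lower under TPM, 8 and 1 on own fragment totals, 5 and 0 with a pseudocount of 1 FPKM, and 2 and 1 with a filter of 5 FPKM. *Epdr1*, a secreted ependymin-related protein of human brown adipocytes, was at 7.69 FPKM in the library labelled BKO, against 0.834 FPKM in the flox/flox library, 9.22-fold higher (6.66 to 13.1). *Enho*, which encodes the peptide adropin, was at 3.15 FPKM in the library labelled BKO and 0.631 FPKM in flox/flox, and *Lcn2*, an acute-phase lipocalin, at 4.48 FPKM (labelled BKO) and 0.981 FPKM (flox/flox). *S100b*, a brown fat signal for sympathetic innervation in mice, was at 12.1 FPKM in the library labelled BKO, against 25.0 FPKM in the flox/flox library, 2.08-fold lower (1.82 to 2.37). Of 4 tested Schwann cell markers 1 was called lower, with summed levels of 45.7 FPKM over 7 markers in the library labelled BKO and 50.2 FPKM in the flox/flox library. *Enho*, *Lcn2* and *S100b* were named after their values were seen.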
